A study of Mus musculus with 6 samples.

Results

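Megf10, Mertk, Axl, Tyro3, Gas6, Pros1, Lrp1, Mfge8, Gulp1 and Cd47 are genes of the receptors, bridging ligands, adaptor and brake by which glia take up synapses and debris. They were chosen by name from 24421 genes in the expression table, and all 10 were present and tested. Both groups were CD51-Flp mice that had received AAV-GFAP-FSF-hM3D-mCherry after birth, so that cells with Flp and an active GFAP promoter carried the Gq-coupled receptor hM3D and mCherry. One group was given CNO (clozapine-N-oxide), the ligand of hM3D, and the other saline, 2 injections per day from postnatal day 7 to day 21. Cortical mCherry-positive cells were sorted on day 21 and their RNA was sequenced in 3 libraries per group, labelled CNO 1, 2 and 3 and saline 3, 4 and 5. CD51 is integrin alpha V. The labels give neither the sex of the animals nor whether a library came from 1 animal or a pool, so the tests below speak of variation among these 6 libraries, which may be technical. With no group given CNO without hM3D, effects of the drug and of the receptor cannot be told apart.

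Astrocytes recognise cargo in 2 ways. Megf10 binds opsonised or phosphatidylserine-bearing material directly, and the TAM receptor kinases Tyro3, Axl and Mertk bind it through Gas6 or protein S, the product of Pros1. Lrp1 is a large endocytic receptor, Mfge8 bridges phosphatidylserine to alpha V integrins, Gulp1 is a cytoplasmic adaptor of the Megf10 and Lrp1 route, and Cd47 restrains uptake through its receptor Sirpa. Megf10 and Mertk are known for synapse removal by astrocytes, while Mertk, Axl, Lrp1 and Cd47 are also expressed by other brain cells, microglia and macrophages among them.

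Libraries differed in ways that bear on all values below. CNO 1 held 3908076 reads and the other 5 held 12010901 to 19224186. Genes with a read numbered 8618, 12820 and 10883 in CNO 1, 2 and 3, against 14311, 14491 and 14141 in saline 3, 4 and 5. Values are the authors' normalized counts, whose library sums were 14223762 to 16591952 in CNO and 9588485 to 9857830 in saline, so a gene at equal normalized counts is a smaller share of the reads in CNO. The myelin genes Mbp and Mobp were the 2 genes that passed the threshold over the whole table. Oligodendrocyte markers took 11.1%, 24.5% and 18.8% of reads in CNO 1, 2 and 3, against 5.33%, 6.10% and 7.87% in saline 3, 4 and 5. The 20 astrocyte markers took 3.86%, 2.65% and 1.09% in CNO 1, 2 and 3, against 3.08%, 2.08% and 2.22% in saline 3, 4 and 5. In every library this was below the oligodendrocyte share. Slc1a2, the main glutamate transporter of astrocytes, stood at 114900 to 292300 normalized counts in CNO and 110000 to 162000 in saline. Gfap stood at 4.23 to 952 in CNO and 374 to 1307 in saline, and P2ry12, which defines microglia, at 14190 to 36500 in CNO and 22240 to 37910 in saline. Xist was above 10000 in CNO 2, CNO 3 and saline 4 and at 885 or less in the other 3 libraries. In bulk RNA of this kind, fewer cells of a type and less RNA per cell cannot be told apart.

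None of the 10 genes passed in CNO against saline by limma (Benjamini-Hochberg adjusted p under 0.05 over 13028 genes), where 0.0154% of all tested genes were called. Unadjusted, 0 of the 10 had p under 0.05, beside 9.53% of all tested genes. On the recovered reads, 0 of the 10 were called by edgeR (0% of all tested genes), by limma-voom (0.123%) and by DESeq2 (1.91%). Log2 fold changes (CNO minus saline) were above 0 for 4 genes and below 0 for 6. Above 0 lay 31.7% of all tested genes and 67.5% of the 2132 whose mean lay between 1000 and 10000. That range holds 7 of the 10. The median of the 10 was -0.11, beside -0.89 for all tested genes and 0.33 for those 2132. It was -0.085 for genes with a read in every library, as all 10 are. The median over all tested genes was 0.00438 in DESeq2 and -0.11 in edgeR on the recovered reads. Groups overlapped for 9 genes and did not overlap for Gas6, while 17.1% of all tested genes had no overlap. All 10 had reads in every library, from 2 reads of Tyro3 in CNO 1 to 11002 reads of Mertk in saline 3.

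**Figure D1:**
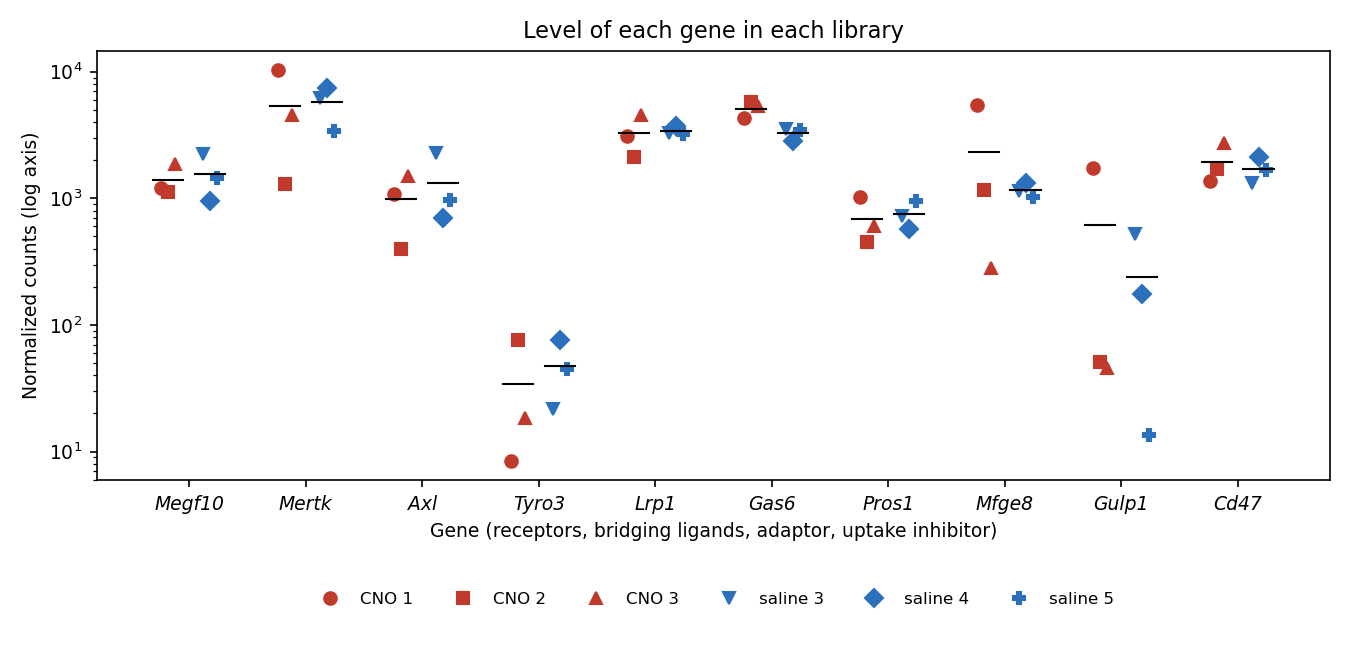
Normalized counts (log axis) of the 10 genes in each library, CNO in red left of saline in blue, with black lines at the group means. Gas6 is the gene whose CNO libraries (4298 to 5725) all lie above its saline libraries (2862 to 3518), and Gulp1 spreads over the widest range, from 13.6 to 1745.

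Levels of different genes were compared per kilobase of exon. Gas6 and Mertk were the most abundant and did not differ from each other beyond their spread in either group. In CNO libraries Gas6 averaged 2009.5 ± 290 normalized counts per kb and Mertk 1239 ± 1047 (SD, n = 3), with Mertk the higher in CNO 1. In saline Gas6 averaged 1290 ± 144 and Mertk 1319 ± 479. Lower means were those of Mfge8, Cd47, Axl, Lrp1, Megf10 and Pros1, at 169 to 495 per kb in CNO and 183 to 272 in saline. Neighbours in this order did not differ beyond their spread. The gap was small in some CNO libraries, with Mfge8 at 1173 beside Gas6 at 1687 in CNO 1. In CNO 2, Cd47 stood at 271 beside Mertk at 302. Gulp1 averaged 163 ± 261 per kb in CNO and 63.6 ± 69.7 in saline. Tyro3 was lowest, at 5.54 ± 5.90 per kb in CNO and 7.66 ± 4.41 in saline.

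Megf10, the receptor named for multiple EGF-like domains, lies on chromosome 18 at 57133090 to 57297467 (protein-coding, plus strand; all gene positions are on GRCm38). It had 1209, 1118 and 1853 normalized counts in CNO 1, 2 and 3, against 2251, 959 and 1459 in saline 3, 4 and 5. The groups overlapped, and the highest and the lowest library were both saline. Its log2 fold change was -0.11 ± 0.58 (SE; 95% interval -1.39 to 1.17; limma adjusted p = 0.952). The value turned to 0.03 without CNO 2 and to 0.20 without saline 3. Megf11, its closest relative, ran from 65.1 to 680 in CNO and from 215 to 364 in saline.

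Mertk, on chromosome 2 at 128698956 to 128802894, was the most abundant TAM receptor in every library. It had 10269, 1307 and 4538 normalized counts in CNO 1, 2 and 3, against 6237, 7486 and 3434 in saline 3, 4 and 5. Both the highest and the lowest library were CNO, and the CNO values differed 7.86-fold among themselves, against 2.18-fold in saline. The log2 fold change was -0.47 ± 0.67 (95% interval -1.92 to 0.99; limma adjusted p = 0.790), and 0.33 without CNO 2. The low value in CNO 2 rests on 1767 reads.

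Axl, on chromosome 7 at 25757273 to 25788705, is a TAM receptor with a preference for Gas6. It had 1078, 401 and 1505 normalized counts in CNO 1, 2 and 3, against 2299, 706 and 971 in saline 3, 4 and 5. The groups overlapped, with saline 3 highest and CNO 2 lowest. Its log2 fold change was -0.43 ± 0.74 (95% interval -2.05 to 1.199; limma adjusted p = 0.831), and it was 0.13 without CNO 2 and 0.07 without saline 3.

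Tyro3, on chromosome 2 at 119797733 to 119818104, is the TAM receptor best known from neurons and myelinating cells. It had 8.45, 76.2 and 18.4 normalized counts in CNO 1, 2 and 3, against 21.5, 76.0 and 44.8 in saline 3, 4 and 5. The value of CNO 1 stands on 2 reads, and its exact 95% Poisson interval of 1.02 to 30.5 normalized counts, for counting error only, reaches the CNO 3 and saline 3 values. The log2 fold change of -0.83 ± 1.92 (limma adjusted p = 0.876) has a 95% interval from -5.03 to 3.38, too wide to show a direction at this depth.

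The make-up of the TAM family was read within each library, where library scaling drops out. Per kb of exon, Mertk gave 91.7%, 76.6% and 77.6% of the TAM sum in CNO 1, 2 and 3, against 75.8%, 91.9% and 79.8% in saline 3, 4 and 5. Each group thus had 1 library with a high Mertk share, and the others lay between 75.8% and 79.8%. Axl gave 8.29%, 20.2% and 22.2% in CNO 1, 2 and 3, against 24.1%, 7.46% and 19.4% in saline 3, 4 and 5. The largest share of Tyro3 was 3.12%, in CNO 2. The within-library log2 ratio of Mertk over Axl averaged 2.18 ± 0.93 in CNO and 2.22 ± 1.04 in saline (SD, n = 3 each; exact permutation p = 0.9, 2-sided), so the receptor balance did not differ beyond the spread between libraries.

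**Figure D2:**
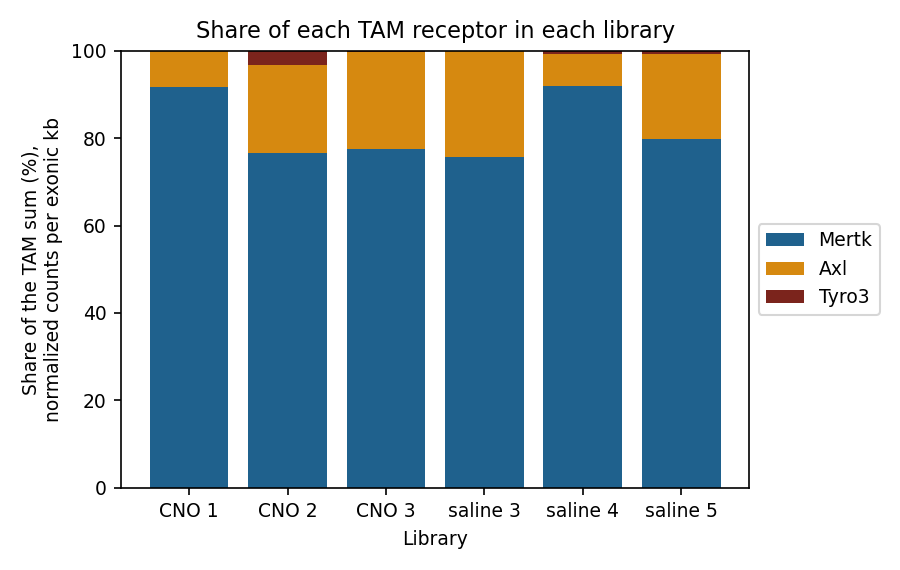
Stacked bars give the share (%) of Mertk, Axl and Tyro3 in their sum, in normalized counts per exonic kb, for each library. Mertk takes 75.8% or more in all 6 libraries, and CNO 1 and saline 4 stand out with 91.7% and 91.9%.

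Lrp1, on chromosome 10 at 127538161 to 127621148, had 3127, 2127 and 4551 normalized counts in CNO 1, 2 and 3, against 3262, 3696 and 3194 in saline 3, 4 and 5. Its saline libraries lay within 1.16-fold of each other, and both the highest and the lowest value were CNO. The log2 fold change was -0.12 ± 0.45 (95% interval -1.11 to 0.88; limma adjusted p = 0.931), and 0.16 without CNO 2. As a share of reads the picture differed. Lrp1 stood at 189, 150 and 274 CPM (reads per 1000000 reads of the library) in CNO 1, 2 and 3, against 331, 384 and 333 in saline 3, 4 and 5, with no overlap and every CNO library lower, as for 21.3% of all tested genes on this scale. With this total-count scaling, added after the data were seen, the log2 fold change was -0.82 ± 0.43 and did not pass (limma adjusted p = 0.395).

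Gas6, on chromosome 8 at 13465374 to 13494490, encodes a vitamin K-dependent ligand for all TAM receptors. It had 4298, 5725 and 5339 normalized counts in CNO 1, 2 and 3, against 3518, 2862 and 3477 in saline 3, 4 and 5. All CNO libraries were higher, and libraries of a group lay close together, within 1.33-fold in CNO and 1.23-fold in saline. The means were 5120 ± 738 in CNO and 3286 ± 367 in saline (SD, n = 3 each), a ratio of 1.56. The log2 fold change of 0.64 ± 0.40 (95% interval -0.23 to 1.51) did not pass (limma adjusted p = 0.603). Of all tested genes, 4.57% likewise had every CNO library above every saline library, and so did 16.4% of the 2239 whose mean reached 1000.

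The higher Gas6 values depended on the scaling. In CPM, Gas6 stood at 260, 402 and 322 in CNO 1, 2 and 3, against 357, 298 and 363 in saline 3, 4 and 5, which overlap, and the log2 fold change was -0.06 ± 0.40. It was -0.04 with quantile normalization. Of 12 oligodendrocyte markers, 7 were likewise higher in all CNO libraries, and most of their share of reads was Mbp. The mean log2 level of those 12 overlapped, at 10.36, 12.79 and 12.15 in CNO 1, 2 and 3, against 10.85, 10.83 and 12.09 in saline 3, 4 and 5. Of 10 border macrophage markers, 3 were higher in all CNO libraries, and the list took 0.390%, 0.370% and 0.606% of reads in CNO 1, 2 and 3, against 0.284%, 0.455% and 0.327% in saline 3, 4 and 5. The part of those cells in the Gas6 values was not tested. An opposite-strand gene, Tmem255b, shares 34 exonic bases with Gas6, and strand handling is not given in the sources used here.

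**Figure D3:**
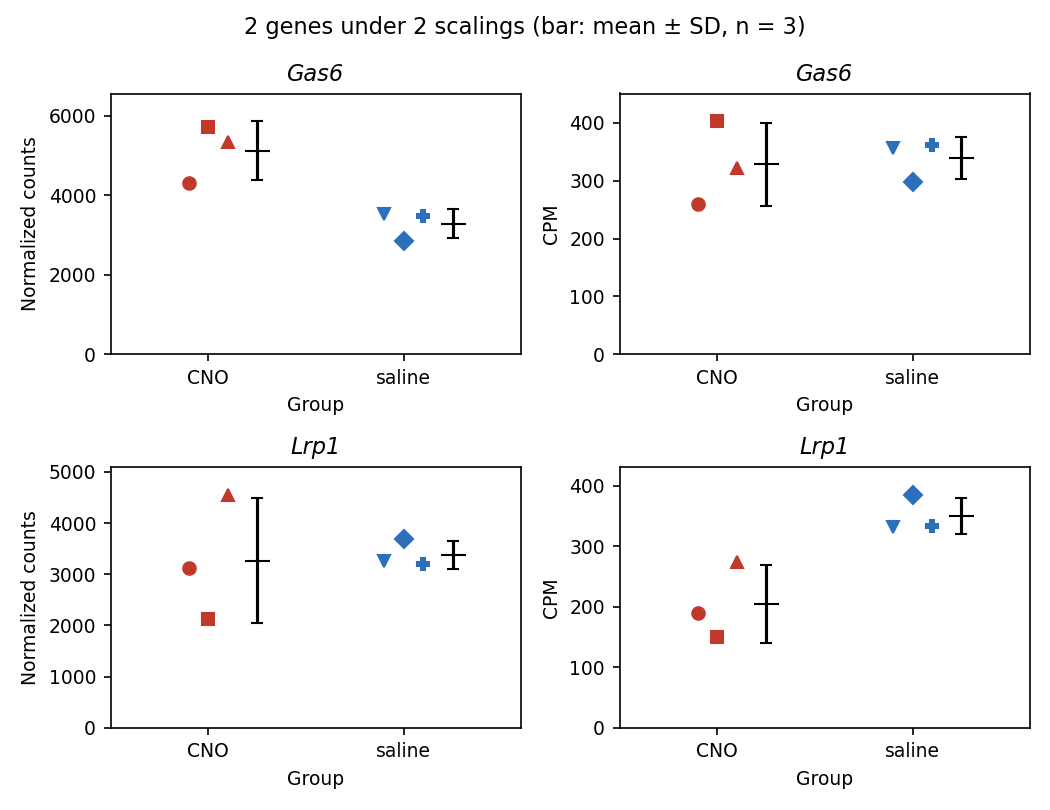
Gas6 (top) and Lrp1 (bottom) in each library, as normalized counts (left) and as CPM (right), with CNO left of saline and bars for the mean ± SD of 3 libraries. Gas6 separates the groups as normalized counts (means of 5120 in CNO and 3286 in saline) and Lrp1 as CPM (204 in CNO and 350 in saline).

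Because Gas6 was the gene whose groups did not overlap, the 250 bases before its annotated start are shown, from RefSeq on GRCm38.p6 (chr8:13494536-13494785, minus strand, written 5′ to 3′). Capitals mark matches to the GC box GGGCGG, read on both strands.
Gas6 upstream: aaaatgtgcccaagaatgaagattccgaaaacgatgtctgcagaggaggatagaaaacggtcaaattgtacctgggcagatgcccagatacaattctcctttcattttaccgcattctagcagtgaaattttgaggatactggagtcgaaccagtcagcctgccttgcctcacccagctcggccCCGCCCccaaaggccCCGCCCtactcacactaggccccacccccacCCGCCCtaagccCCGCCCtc
The window holds 4 GC boxes, all in its last 66 bases, and at least 1 GC box occurs in 32.7% of 32851 windows of this length. It holds neither the cAMP response element TGACGTCA (1.55% of windows) nor the AP-1 element TGANTCA (6.75%), which are among the elements that calcium and ERK signals act on. The letters of both elements were also not found in the windows of the 8 other genes that had an entry. Other elements of that kind were not searched. GC boxes were not particular to Gas6, since each of those 8 genes had from 1 (Axl) to 5 (Pros1), with 4 in Mfge8. Megf10 had no entry. A match or its lack describes these letters in this window and says nothing of binding.

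Pros1, on chromosome 16 at 62854307 to 62929346, encodes protein S, the ligand that Mertk and Tyro3 share with Gas6. It had 1023, 448 and 600 normalized counts in CNO 1, 2 and 3, against 726, 570 and 947 in saline 3, 4 and 5, and the groups overlapped. Its log2 fold change was -0.17 ± 0.71 (95% interval -1.72 to 1.38; limma adjusted p = 0.937), and 0.10 without CNO 2 and 0.02 without saline 5. The within-library log2 ratio of Gas6 over Pros1 was 2.07, 3.67 and 3.16 in CNO 1, 2 and 3, against 2.28, 2.33 and 1.88 in saline 3, 4 and 5. CNO 2 and 3 lay above all saline libraries and CNO 1 did not, and the mean difference of 0.81 did not hold up (exact permutation p = 0.3, 2-sided). Over the 6 ratios tested this way, exact p ran from 0.3 to 1 and was 1 after adjustment. With 3 libraries a group the test cannot go below 0.1.

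Mfge8, on chromosome 7 at 79133768 to 79149060, is secreted by astrocytes among other cells. It had 5506, 1174 and 284 normalized counts in CNO 1, 2 and 3, against 1134, 1327 and 1027 in saline 3, 4 and 5. The CNO libraries differed 19.4-fold among themselves and the saline libraries 1.29-fold. The group means were 2322 ± 2794 in CNO and 1163 ± 152 in saline, yet the log2 fold change was 0.08 ± 0.92 (limma adjusted p = 0.978), -0.999 without CNO 1, 1.14 without CNO 3 and -0.0014 without saline 5. It was 1.0002 in DESeq2 and 0.79 in edgeR on the same genes, and neither called it. Of the 20 astrocyte markers, 15 had the same order, CNO 1 above CNO 2 above CNO 3. How many of all tested genes share that order was not counted, and CNO 1 is the library with fewest reads. Slc1a3, a glutamate transporter, stood at 60600, 34060 and 14960 in CNO 1, 2 and 3, while Aldh1l1, a folate enzyme, ran the other way at 110, 271 and 1373. The mean log2 level of the 20 astrocyte markers was 12.68, 12.19 and 10.93 in CNO 1, 2 and 3, against 11.95, 11.42 and 11.18 in saline 3, 4 and 5, with none of them at 0 reads. Among the saline libraries Mfge8 was highest in saline 4, and this marker mean was highest in saline 3. The part of the astrocyte markers in the Mfge8 values was not tested.

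Gulp1, on chromosome 1 at 44551511 to 44796838, was the most uneven of the 10 genes. It had 1745, 51.1 and 45.6 normalized counts in CNO 1, 2 and 3, against 526, 177 and 13.6 in saline 3, 4 and 5. Each group had 1 high library, and values spread 38.3-fold in CNO and 38.7-fold in saline, or 128-fold overall. The highest value rests on 413 reads and the lowest on 27 reads, with exact 95% Poisson intervals, for counting error of reads only, of 1581 to 1922 and 8.96 to 19.8 normalized counts. Among the 3194 genes with a mean of 300 to 1000, 99.2% spread less between the saline libraries, 70.3% between the CNO libraries and 78.1% over all 6. That range is of means over all 6 libraries, and the saline mean of Gulp1 was 239, below it. The 99.2% is thus not a comparison with genes of like level in saline. The log2 fold change of 0.54 ± 1.83 (95% interval -3.47 to 4.56; limma adjusted p = 0.919) became -1.17 without CNO 1 and -0.92 without saline 5.

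Cd47, on chromosome 16 at 49800533 to 49915010, had 1382, 1702 and 2730 normalized counts in CNO 1, 2 and 3, against 1319, 2112 and 1690 in saline 3, 4 and 5. The groups overlapped, and all 6 libraries lay within 2.07-fold. Its log2 fold change was 0.15 ± 0.53 (95% interval -1.02 to 1.32; limma adjusted p = 0.924), -0.13 without CNO 3 and -0.02 without saline 3. Sirpa, the receptor for Cd47, had 7898, 5175 and 10926 in CNO 1, 2 and 3, against 9332, 9263 and 7583 in saline 3, 4 and 5, and overlapped too.

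**Figure D4:**
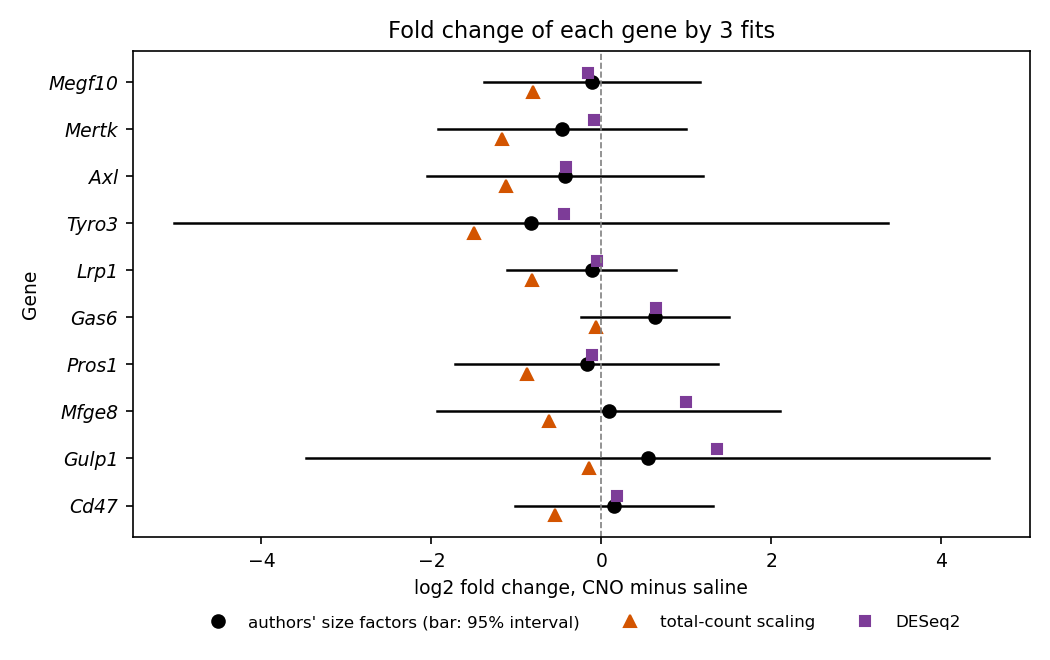
Log2 fold change (CNO minus saline) of each gene by limma with the authors' size factors (circles, bars for 95% intervals), with total-count scaling (triangles) and by DESeq2 (squares). All 10 intervals include 0, and with total-count scaling every estimate lies at or below -0.06. The median of all tested genes with that scaling was -1.52.

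For the most abundant gene of each role, the genes nearest in pattern were sought among those whose mean reached 1000, by the root mean square difference of centred log2 values over the 6 libraries. Nearest to Mertk were Trpm7 (0.20), Srek1 (0.25) and Ythdf1 (0.25). Nearest to Gas6 were Nsa2 (0.11), Rpl39 (0.14) and Tcf4 (0.14), and nearest to Cd47 were AI607873 (0.12), Bclaf1 (0.13) and Impact (0.16). Nearest to Gulp1 were 9530091C08Rik (0.60) and Ivd (0.87). The measure is not scaled to the spread of a gene, so it runs larger for an uneven gene such as Gulp1. With a mean of 426, Gulp1 also lies below the level searched. Outside this choice, and picked after values were seen, Sirpa was the gene nearest to Lrp1 (0.0897).

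**Figure D5:**
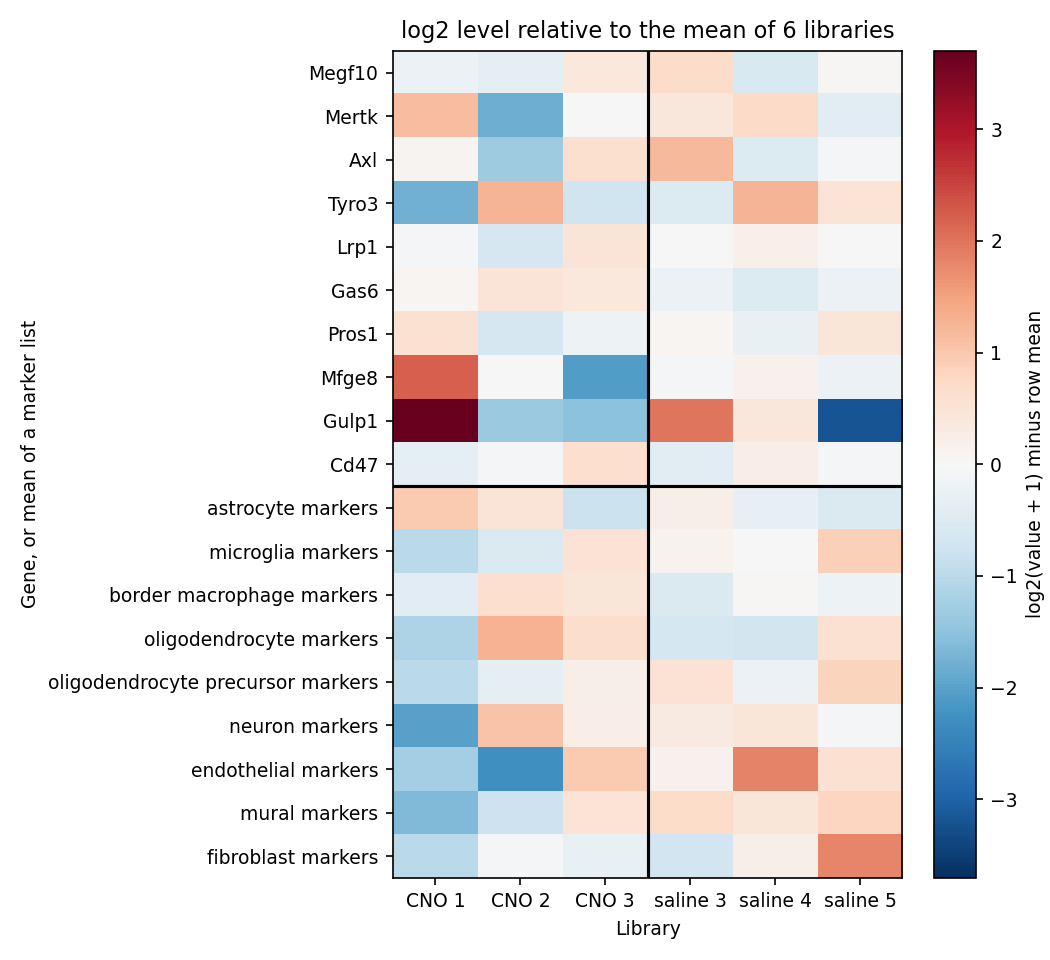
Colours give log2(value + 1) minus its mean over the 6 libraries, for the 10 genes (above the line) and for the mean of each cell type's markers (below), CNO left of saline. CNO 1 has the highest Mfge8, Gulp1, Mertk and astrocyte marker levels and low means of most other marker lists, while CNO 2 has the lowest Mertk and Axl. In CNO 1, the library with fewest reads, 7 of 12 neuron and 6 of 10 mural markers had 0 reads, and zeros lower these means. As shares of reads, fibroblast markers were lowest in CNO 1 (0.0212%), while neuron markers stood higher there (0.109%) than in CNO 2 (0.0934%) and CNO 3 (0.106%).

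Other genes of the uptake pathway were read from lists by step. Their values are on the authors' scale, whose library sums were larger in CNO, so a higher value need not be a larger share of reads. Shares of reads were not compared for them. Of all tested genes, 31.7% had log2 fold changes above 0, and their median was -0.89, which is the background for the counts of each list. Among 18 tested engulfment receptors, 0 passed in limma, 5 had log2 fold changes above 0 and 13 below, and the median was -0.47. Timd4, a phosphatidylserine receptor of resident macrophages, had 0 reads in every CNO library, as had 518 of all 13028 tested genes. In saline 3, 4 and 5 it had 168, 119 and 30.2 normalized counts. By a floor of 3 reads per CNO library, Timd4 was at least 17.8-fold lower in CNO. DESeq2 called Timd4 lower (adjusted p = 0.00897), where it called 1.38% of tested genes lower, and limma did not (adjusted p = 0.488). Msr1, a macrophage scavenger receptor, averaged 2280 ± 836 in CNO and 917 ± 177 in saline, without overlap and without passing in limma. Itgb2, the leukocyte beta-2 integrin, averaged 124 ± 168 in CNO and 549 ± 66.7 in saline. Trem2, a microglial lipid receptor, averaged 350 ± 24.9 in CNO and 966 ± 372 in saline. Itgb2 and Trem2 were lower in every CNO library without passing in limma, while 17.1% of all tested genes had no overlap in either direction. Timd4, Msr1, Itgb2 and Trem2 are known mainly from microglia and macrophages. Microglia markers took 0.673%, 0.459% and 1.10% of reads in CNO 1, 2 and 3, against 1.09%, 1.09% and 1.58% in saline 3, 4 and 5, and their part in these values was not tested.

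Among 14 other bridging ligands and opsonins, 0 passed in limma, 8 lay above 0 and 6 below, with a median of 0.15. C3, the complement opsonin, had 0 reads in every CNO library and 143, 258 and 159 normalized counts in saline 3, 4 and 5, and DESeq2 called it lower (adjusted p = 0.000131). Thbs1, which encodes thrombospondin 1, had 0, 1.48 and 24.3 normalized counts in CNO 1, 2 and 3, against 358, 226 and 81.5 in saline 3, 4 and 5. Apoe had a mean of 31349 ± 10440 in the CNO libraries and 17230 ± 5595 in the saline libraries (adjusted p = 0.496 in limma), with overlap between CNO 2 and saline 3. None of 11 genes of phosphatidylserine exposure passed (7 above 0, 4 below, median 0.33). Tmem30a, the partner of the flippases, had a mean of 2804 ± 660 in the CNO libraries and 1413 ± 456 in the saline libraries (adjusted p = 0.552 in limma), and the scramblase Plscr1 was at 0 reads in every CNO library and at 3.97 to 87.1 in saline. Among 11 uptake-inhibiting signals, 0 passed (4 above 0, 7 below, median -0.18). Cd200, which restrains microglia through its receptor, had 0, 18.5 and 0 in CNO 1, 2 and 3, against 179, 54.4 and 51.8 in saline 3, 4 and 5. Siglecg, at 0 reads in every CNO library, had 65.8, 1713 and 3.02 in saline 3, 4 and 5, and DESeq2 called it lower (adjusted p = 9.77e-05). Limma did not (adjusted p = 0.488), and DESeq2 called 1.38% of tested genes lower. The Siglecg value of saline 5 lies below 5.94, the mean CNO floor for 3 reads per library. C3, Plscr1 and Siglecg are among the 518 of 13028 tested genes at 0 reads in every CNO library.

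Inside the cell, 0 of 30 signalling and cytoskeleton genes passed in limma (14 above 0, 16 below, median -0.07). Rac1, the GTPase that drives the phagocytic cup, had 20331, 13045 and 13660 normalized counts in CNO 1, 2 and 3, against 8831, 7430 and 11719 in saline 3, 4 and 5. On this scale all CNO libraries were higher, as for 16.4% of the 2239 tested genes whose mean reached 1000. The log2 fold change of Rac1 was 0.75 ± 0.34 (limma adjusted p = 0.522). Plcg2, a phospholipase of immune receptors, had a mean of 86.6 ± 7.31 in the CNO libraries and 629 ± 128 in the saline libraries (adjusted p = 0.488 in limma; DESeq2 adjusted p = 0.0121, lower in CNO). Of 43 phagosome and lysosome genes, 0 passed (16 above 0, 27 below, median -0.42). Rab7, the GTPase of late endosomes, had 47022, 33470 and 25942 in CNO 1, 2 and 3, against 12812, 16238 and 16035 in saline 3, 4 and 5, with a log2 fold change of 1.204 ± 0.299 (limma adjusted p = 0.488). Lamp1, a lysosomal membrane protein, had a mean of 30457 ± 5918 in the CNO libraries and 20663 ± 3452 in the saline libraries (adjusted p = 0.550 in limma). The higher values of Rab7 and Lamp1 are on the authors' scale, and their shares of reads were not compared. Map1lc3a was lower in every CNO library, at 0, 37.0 and 0 in CNO 1, 2 and 3. It had 413, 114 and 43.3 in saline 3, 4 and 5 (limma adjusted p = 0.507). Of 7 genes of receptor shedding and turnover, 0 passed (4 above 0, 3 below, median 0.05). Timp3, an inhibitor of the sheddase Adam17 that cuts Mertk, had a mean of 6092 ± 3920 in the CNO libraries and 1620 ± 431 in the saline libraries (adjusted p = 0.488 in limma). Ndrg1, linked to endosomal recycling and also abundant in myelinating cells, had a mean of 2562 ± 452 in the CNO libraries and 406 ± 152 in the saline libraries (adjusted p = 0.488 in limma), and DESeq2 called it higher (adjusted p = 0.00708), where it called 0.530% of tested genes higher.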

How the data were processed

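The deposited signal is a read count per gene scaled by the authors with a single size factor for each library, since each column consists of whole multiples of 1 step (100% of values within 1e-06 reads). Dividing by the step recovered whole reads. Per the submitters' processing notes, Trimmomatic 0.4, FastQC 0.10.1, MultiQC 0.9, STAR 2.5.0a, DESeq2 1.20.0 and the build mm10 were used, with the counter, its annotation and its strand setting not given in the sources used here. Per the labels, libraries were made from 10 ng of total RNA. The reads carry no molecular identifiers, so intervals and floors cover counting error only.

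Groups and replicate numbers came from the labels. Each gene was tested with limma 3.58.1 (R 4.3.3) on log2 of the value plus 1, for genes with a mean of at least 10, with a variance trend, 2-sided, Benjamini-Hochberg adjusted over 13028 genes at 0.05. Fold changes are differences of mean log2 values. For genes with low or uneven values they can be smaller or larger than the ratio of means. The fit was tested on simulated data. Within-library ratios used exact permutation tests (scipy 1.17.1). Alternatives included edgeR 4.0.16, DESeq2 1.42.0 and limma-voom on the recovered reads. The 10 genes and all lists were chosen with earlier results of these data known. From each pathway list up to 4 genes with the smallest p were eligible for naming, and Megf11 and Sirpa were named outside that rule. Exonic lengths and positions are those of GENCODE release M21 on GRCm38, the assembly of mm10, and upstream windows are RefSeq's on GRCm38.p6. Figures used matplotlib 3.10.9.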

Additional observations from a re-analysis of the deposited data

How the results depend on the processing

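No paired analysis was possible because the groups share 1 replicate number, 3. Total-count scaling and an Xist covariate were added after the data were seen. None of the 10 genes was called under any alternative run. The 2 calls over all genes became 0 with a mean filter of 50, with genes read in every library, with quantile normalization, without the variance trend, in edgeR on the same genes and with total-count scaling. They became 11 with array weights, 16 in edgeR on every gene with a read, 16 in limma-voom and 249 in DESeq2, and 0 to 2 with 1 library left out (2 without CNO 1, 0 without any other). Tyro3 could not be fitted with the mean filter of 50.

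Log2 fold changes that turned sign were, with quantile normalization, 1.79 for Tyro3, -0.036 for Gas6, -0.37 for Mfge8 and -0.40 for Cd47. With total-count scaling they were -0.064 for Gas6, -0.62 for Mfge8, -0.14 for Gulp1 and -0.55 for Cd47. The median of all tested genes with that scaling was -1.52. Mfge8 was -0.040 with TMM scaling, -0.24 with array weights and -0.55 in limma-voom, and Gulp1 -0.52 with array weights and -0.062 in limma-voom. With the Xist covariate Megf10 was 0.00077, Pros1 0.083 and Cd47 -0.041. The causes were not tested.

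With 1 library left out, log2 fold changes ran from -0.42 to 0.20 for Megf10, -1.16 to 0.33 for Mertk, -0.82 to 0.13 for Axl, -0.50 to 0.10 for Pros1, -0.39 to 0.16 for Lrp1, -0.999 to 1.14 for Mfge8, -1.17 to 1.67 for Gulp1 and -0.13 to 0.36 for Cd47. They ran from 0.54 to 0.76 for Gas6 and from -1.67 to -0.15 for Tyro3, which kept their sign. Within-library log2 ratios (CNO minus saline) ran from -0.57 to 0.55 for Mertk over Axl, -0.998 to 2.08 for Mertk over Tyro3, -1.88 to 0.42 for Tyro3 over Axl, -0.30 to 1.13 for Megf10 over Mertk, -1.76 to 0.54 for Mfge8 over Gas6 and 0.45 to 1.25 for Gas6 over Pros1.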
